A study of Mus musculus with 48 samples.

Results

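The genes described here were those of the cytochrome P450 families 2 and 3, taken as every gene of the deposited mouse tables whose symbol consists of Cyp2 or Cyp3, a subfamily letter and a number. The rule found 37 genes, 32 of family 2 and 5 of family 3, among 15541 genes listed in any of 6 tissues. The data were mRNA sequencing of 48 libraries from male C57Bl6 mice with diet-induced obesity, raised on a high fat diet, which had Roux-en-Y gastric bypass (RYGB, in which food is led past most of the stomach and the duodenum) or sham surgery and then received an elemental liquid diet in both groups. The mice were killed at day 9 in the morning after an overnight fast, so the fast and the liquid diet were common to both groups. There were 4 libraries per group in the liver, in skeletal muscle and in white fat (white adipose tissue, WAT). Villi, scraped off the gut after EDTA, had 3 RYGB and 4 sham libraries in the duodenum, 3 and 4 in the jejunum, and 5 and 5 in the ileum. The descriptions give no separate animal for each library, so p-values measure the spread between these libraries only, and they do not say whether sham mice were matched for weight or food intake.

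Cytochrome P450 enzymes are heme proteins of the endoplasmic reticulum that add an oxygen atom to a substrate, with electrons passed on by P450 oxidoreductase (Por). Families 2 and 3 carry out most of the oxidation of drugs, plant compounds and other foreign molecules in hepatocytes and villus enterocytes, and they also act on steroids, bile acids, vitamin D and polyunsaturated fatty acids. Many are switched on by the xenobiotic receptors PXR (Nr1i2) and CAR (Nr1i3), and in mouse liver several are set by the sex-specific rhythm of growth hormone.

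The genes lay on 6 chromosomes (GRCm38, GENCODE M21 annotation). Chromosome 19 held 13 genes, of which the 12 Cyp2c genes other than Cyp2c44 stood within 1.18 Mb (chr19:39007019-40187333). Chromosome 7 held 10 genes, the Cyp2a and Cyp2b genes among them. Chromosome 15 held the 5 Cyp2d genes, within 0.424 Mb. Chromosome 5 held the 5 Cyp3a genes and chromosome 4 the 3 Cyp2j genes. Cyp2u1 stood alone on chromosome 3. Cyp2c44 has the name Cyp2c23 in the annotation. Some members of such clusters are near copies of each other, and reads from shared stretches can be split or lost in counting. For 17 of the 37 genes, over 20% of the 50-base windows of the transcript also occurred in the transcript of another gene of these families. The highest share was 52.8% for Cyp2c67, with Cyp2c40 holding the most of these windows, and it was 0% for 9 genes. Values of the 17 genes are therefore uncertain as to which copy the reads came from.

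Values were CPM, which are read counts scaled to a common library total. A gene was called a differentially expressed gene (DEG) when the adjusted P value (limma on log2(CPM + 1), Benjamini-Hochberg over all genes tested in the tissue) was under 0.05 and the fold change was at least 1.5. Fold changes on this scale understate those of genes near 1 CPM. Every gene in a table had 1 CPM or more in a number of libraries no lower than the size of the smaller group. The listed values did not sum to the full library total in each table, so a gene that is not listed in a tissue has no known level there. Of the 37 genes, 32 were listed in liver, 8 in WAT, 5 in muscle, 20 in the duodenum, 20 in the jejunum and 17 in the ileum. All 102 pairs of gene and tissue but 1 had a mean of at least 1 CPM and were tested. The exception was Cyp2c67 in the jejunum. Among the 101 tests 18 DEGs were found, 3 higher and 15 lower in the RYGB group.

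The families were spread unevenly over the tissues. Only 4 genes (Cyp2d22, Cyp2j6, Cyp2j9 and Cyp2u1) were listed in all 6 tissues, and 15 were listed in liver alone. Cyp2b10, Cyp2c65, Cyp2c66 and Cyp3a44 were listed in the gut alone. In the liver of the sham group, the members together took 13317.3 to 17814.8 CPM per library. The highest level per length of transcript was that of Cyp2e1, which oxidises ethanol and acetone, at 3150 CPM per kb, followed by Cyp2c29 at 678 and Cyp2f2 at 602. In the villi, family 3 led. Cyp3a11, the main inducible Cyp3a enzyme, had 1100 CPM per kb in the sham duodenum and Cyp3a13 had 1070. Cyp3a13 was highest in the sham jejunum at 833 and in the sham ileum at 446. In WAT and muscle the levels were low, with Cyp2e1 at 79.0 CPM per kb in sham WAT and Cyp2d22 at 3.70 CPM per kb in sham muscle as the highest. The tables were normalized separately, and no test was made between tissues.

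**Figure D1:**
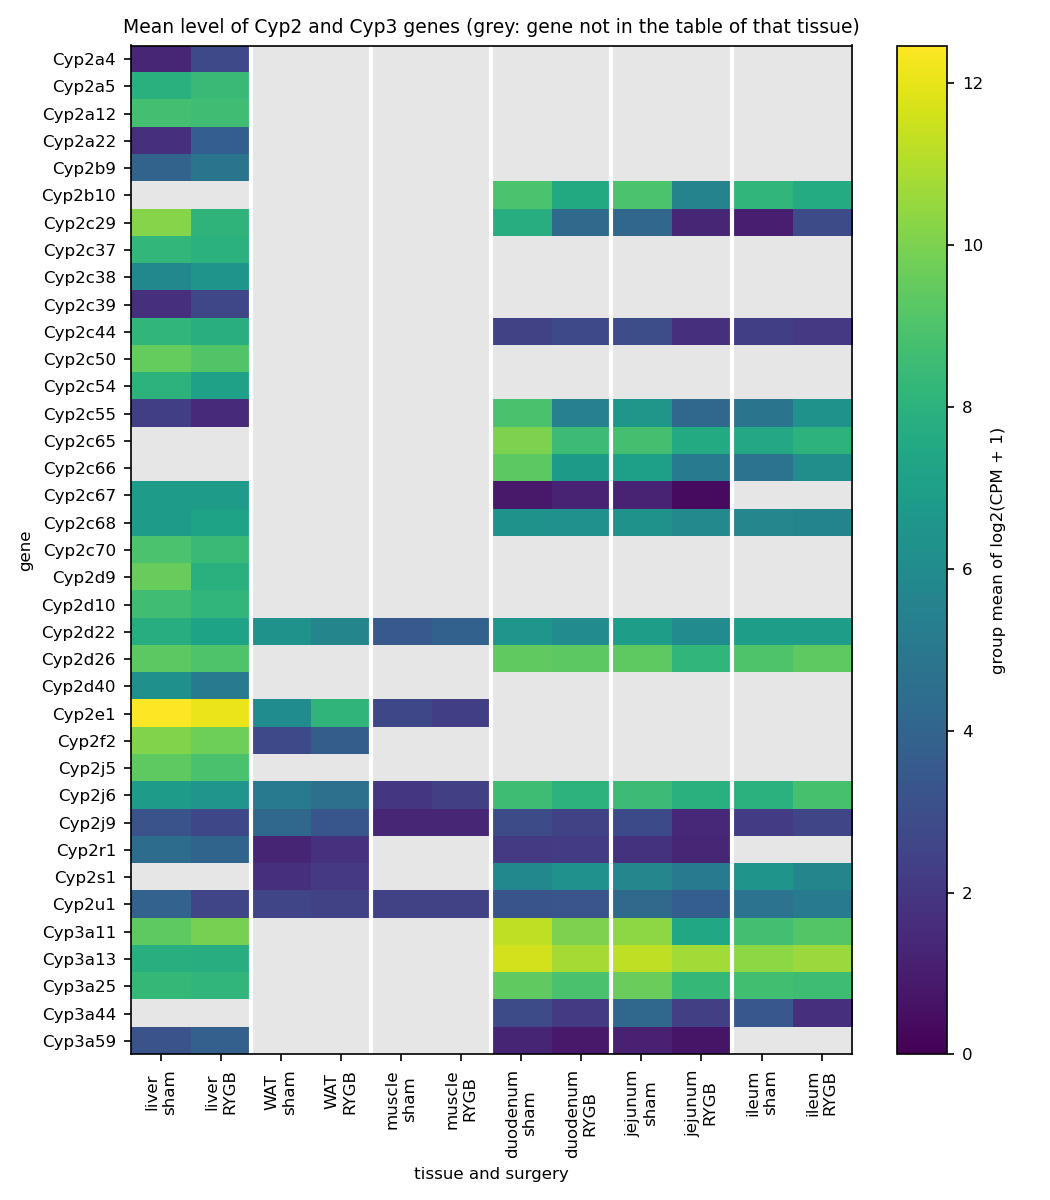
Mean level of each of the 37 genes (rows) in the 12 groups of tissue and surgery (columns), as the group mean of log2(CPM + 1), with grey where a gene is not in the table of that tissue. Most genes have their level in liver or in the gut, and 4 genes are present in all 6 tissues.

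Each tissue was checked against markers. All 10 hepatocyte markers were listed in liver, all 7 adipocyte markers in WAT, all 6 skeletal muscle markers in muscle, and all 8 enterocyte markers in each gut segment. In bulk tissue, fewer cells of a type and less RNA per cell cannot be told apart. The sequencing depth is unknown. The median gene moved with surgery in some tissues, by a log2 fold change of 0.13 in liver, 0.12 in the duodenum and 0.11 in WAT, and by -0.09 in the ileum.

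Of the 6 tissues, the jejunum had the largest share of members that were DEGs. In the jejunal villi 8 of 19 members tested were lower and none was higher in the RYGB group, where 5.13% of all genes were called lower. All 19 log2 fold changes were below 0, as were 54.5% of those of all genes, and the median was -1.17 against -0.04 over all genes. Cyp2c29 and Cyp3a59 are among the 19 but are listed through the sham group, where they are higher, and the 17 members at 1 CPM in 3 libraries of both groups had 17 values below 0 and a median of -1.17. The DEGs were the xenobiotic-induced genes Cyp2b10 and Cyp3a11 with its neighbours Cyp3a25 and Cyp3a44, and the Cyp2d genes Cyp2d26 and Cyp2d22. The others were Cyp2c44 and Cyp2j9, whose enzymes act on arachidonic acid.

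The bases before the start sites of 5 of these genes are shown, as those of the xenobiotic-induced genes and Cyp3a neighbours and of Cyp2d26. Cyp2d22 and Cyp2c44 had no entry in the table used, and Cyp2j9 had one but is not shown. The stretches are the 250 bases upstream of the RefSeq start (GRCm38.p6), 5′ to 3′ on the strand of the gene. Capitals mark matches, on either strand, to TATAAA (the TATA box), AGGTCA and AGTTCA (hexamers that nuclear receptors such as PXR and CAR can bind) and GTTAAT (part of the motif of a hepatocyte nuclear factor).
Cyp2b10 (chr7:25897408-25897657, plus strand): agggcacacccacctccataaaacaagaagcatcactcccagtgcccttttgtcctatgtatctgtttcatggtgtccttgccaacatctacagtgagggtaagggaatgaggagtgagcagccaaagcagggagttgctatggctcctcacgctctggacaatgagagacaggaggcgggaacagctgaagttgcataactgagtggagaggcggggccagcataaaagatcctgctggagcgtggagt
Cyp3a11 (chr5:145879855-145880104, minus strand): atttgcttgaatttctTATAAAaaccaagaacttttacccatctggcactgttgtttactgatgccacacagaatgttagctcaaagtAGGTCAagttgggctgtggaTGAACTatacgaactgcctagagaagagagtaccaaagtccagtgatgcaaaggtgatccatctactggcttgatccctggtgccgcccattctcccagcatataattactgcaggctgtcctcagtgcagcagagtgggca
Cyp3a25 (chr5:146009619-146009868, minus strand): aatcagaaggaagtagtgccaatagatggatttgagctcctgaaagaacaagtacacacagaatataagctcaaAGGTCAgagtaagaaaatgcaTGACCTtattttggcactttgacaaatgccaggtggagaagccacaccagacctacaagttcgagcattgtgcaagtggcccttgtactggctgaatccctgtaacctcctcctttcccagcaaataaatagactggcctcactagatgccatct
Cyp3a44 (chr5:145805875-145806124, minus strand): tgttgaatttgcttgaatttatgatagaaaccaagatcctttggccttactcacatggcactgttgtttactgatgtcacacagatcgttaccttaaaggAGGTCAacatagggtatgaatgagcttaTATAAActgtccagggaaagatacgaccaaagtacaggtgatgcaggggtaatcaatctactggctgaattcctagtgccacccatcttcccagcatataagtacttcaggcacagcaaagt
Cyp2d26 (chr15:82794246-82794495, minus strand): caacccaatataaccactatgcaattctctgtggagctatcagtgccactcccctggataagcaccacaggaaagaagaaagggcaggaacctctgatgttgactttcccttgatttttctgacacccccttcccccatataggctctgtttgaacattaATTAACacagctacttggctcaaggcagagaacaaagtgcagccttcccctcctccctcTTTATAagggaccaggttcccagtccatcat
AGGTCA was present upstream of Cyp3a11, Cyp3a25 and Cyp3a44, at 162, 176 and 150 bases before the start, with a further match on the other strand in Cyp3a25 at 155. Cyp2d26 held TATAAA at 31 and GTTAAT at 90, both on the other strand. Over all 32851 promoters of the table, AGGTCA was found in 14.0%, TATAAA in 12.4%, AGTTCA in 11.8% and GTTAAT in 6.43%. Of the 33 members with an entry, 9 held AGGTCA, 19 held TATAAA, 3 held AGTTCA and 4 held GTTAAT. No matches overlapped. None of the 4 hexamers was found in the windows of Cyp2b10 and Cyp2j9. Of the 6 jejunal DEGs with an entry, 3 held AGGTCA, 3 held TATAAA, 1 held AGTTCA and 1 held GTTAAT. A match describes letters only.

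Cyp2b10, the classical target of CAR, had 120.6, 23.1 and 36.8 CPM in the 3 RYGB libraries. The 4 sham libraries had 274.1, 611.9, 597.6 and 568.7 CPM. The groups did not overlap, and sham replicate 1 lay apart from the other sham libraries. The log2 fold change was -3.35 (SE 0.49, adjusted P = 0.00363), and the means stood at 60.2 ± 52.8 and 513 ± 160 CPM (SD, n = 3 and 4).

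Cyp3a11 had 571.7, 84.8 and 110.8 CPM after RYGB. In the sham group it had 993.5, 2099.8, 766.3 and 1700 CPM. RYGB replicate 1 lay near the lowest sham library and the other RYGB libraries far below. The log2 fold change was -2.86 (SE 0.60, adjusted P = 0.0170). Its neighbour Cyp3a25 had 456.2, 309 and 215.1 CPM after RYGB. Its sham libraries had 646.8, 870.6, 737.2 and 911.5 CPM, with no overlap and a log2 fold change of -1.33 (SE 0.25, adjusted P = 0.0113). Cyp3a44, a low-level member of the cluster, had 4.9, 3.2 and 4.5 CPM after RYGB. It had 14.4, 11.2, 43.4 and 11.9 CPM in the sham group, and fell by 1.82 on the log2 scale (SE 0.41, adjusted P = 0.0243). Of the windows of Cyp3a25 and Cyp3a44, 26.8% and 26.5% occur in other genes of these families, most often in Cyp3a59 and Cyp3a41a.

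Cyp3a13 stands apart from the cluster on chromosome 5 and shares no window with another member. It had 2618, 1717.8 and 1115 CPM after RYGB and 2209, 2905.7, 1998.3 and 2730.8 CPM in the sham group. These overlap, and the log2 fold change was -0.51 (95% confidence interval -1.15 to 0.13, adjusted P = 0.318).

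Cyp2d26 had 378, 218.5 and 298.4 CPM after RYGB. Its sham libraries had 572.4, 646.4, 662.1 and 747.6 CPM. The groups were clear of each other, with a log2 fold change of -1.17 (SE 0.21, adjusted P = 0.00813). Cyp2d22, also on chromosome 15, had 80.1, 54.8 and 60.2 CPM against 117.1, 118.4, 123.9 and 142.2 CPM, a log2 fold change of -0.95 (SE 0.18, adjusted P = 0.0103). Cyp2c44, an arachidonic acid epoxygenase, had 2.3, 2.2 and 2 CPM after RYGB against 6.6, 7.5, 7.3 and 5.8 CPM (log2 fold change -1.30, SE 0.19, adjusted P = 0.00364). Cyp2j9, which acts on arachidonic acid too, had 2.1, 1.5 and 1.3 CPM against 4.5, 10.9, 4.4 and 6 CPM (log2 fold change -1.43, SE 0.30, adjusted P = 0.0162).

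**Figure D2:**
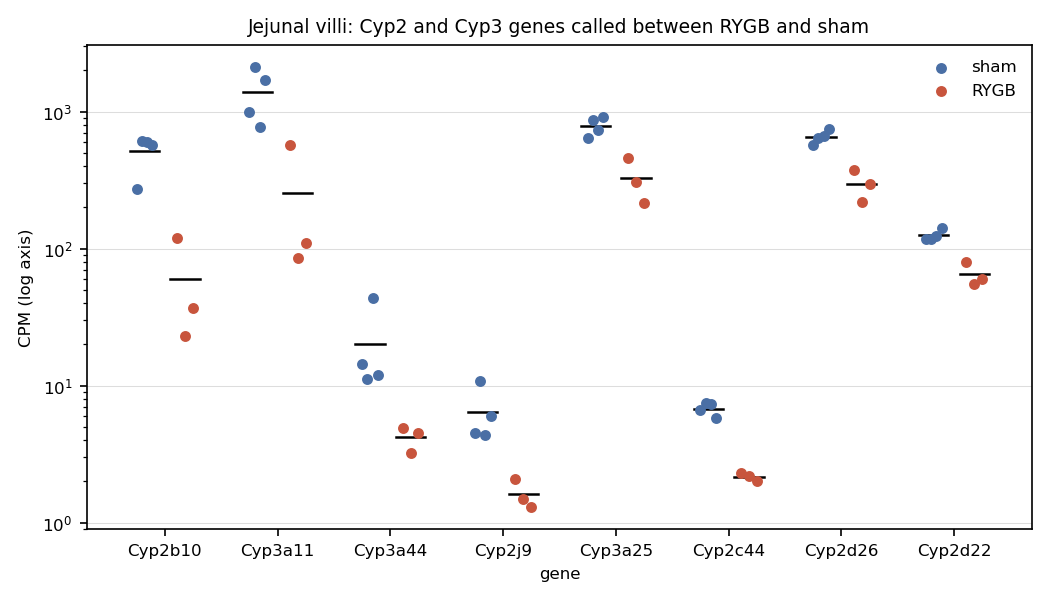
CPM (log axis) of the 8 DEGs of the jejunal villi in single libraries, with 4 sham and 3 RYGB points per gene and bars at the group means. For each gene the RYGB points lie below all sham points. On the log axis the widest gap of means is that of Cyp2b10, at 513 CPM against 60.2 CPM.

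The other 11 tested members had log2 fold changes between -2.78 and -0.46. Groups did not overlap for 10 of 19 members, all lower after RYGB, against 12.5% of all genes. Besides the 8 DEGs these were Cyp2c68 and Cyp2s1. Cyp2c67, the member not tested, had 0.2 to 0.4 CPM after RYGB and 1.0 to 1.7 CPM in the sham group, and it too is listed through the sham group. The summed level of all members was 2356.0 to 5260.9 CPM after RYGB and 5625.6 to 9664.0 CPM in the sham group, again without overlap.

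Single libraries mattered in the jejunum. RYGB replicate 1 was the highest RYGB library for 16 of 19 members, but for 23% of all genes. Without it 11 members were called lower, Cyp2c55, Cyp2c65 and Cyp2c66 among them. RYGB replicate 2 was the only jejunal library in its lane, so a fit with the lane in the model gives the same fold changes as one without this library. In either fit 4 members were called (Cyp2b10, Cyp3a25, Cyp2c44 and Cyp2d26). Within the lane that held both groups the log2 difference was -2.85 for Cyp2b10, -2.34 for Cyp3a11, -1.67 for Cyp3a44, -1.40 for Cyp2j9, -1.32 for Cyp3a25, -1.30 for Cyp2c44, -0.96 for Cyp2d26 and -0.84 for Cyp2d22. Cyp3a11 also lost its call without RYGB replicate 3 or sham replicate 4, and Cyp3a44 without RYGB replicate 3, with adjusted P values over the alternatives of 0.00102 to 0.0657 and 0.00480 to 0.0916.

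Cell markers moved in the same tissue. The 8 enterocyte markers summed to 45376.7 to 66520.4 CPM after RYGB and to 79016.8 to 94669.1 CPM in the sham group, with 2 of 8 called lower and a median log2 fold change of -0.64. Of 6 T cell markers listed, 5 were called lower, with sums of 8.2 to 16.6 and 38.5 to 61.6 CPM. Of 4 Paneth cell markers listed, 2 were called higher, with sums of 81.6 to 157.7 and 26.4 to 55.1 CPM. Their part in the P450 differences was not tested.

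The duodenal villi gave no DEG among 20 members, but the fit called 0.00922% of all genes (1 gene) in this segment. At an unadjusted P value under 0.05, 8 of 20 members were lower and none was higher, where 3.80% of all genes were lower. Groups did not overlap for 5 members, all lower after RYGB, against 2.93% of all genes. These were Cyp2c29, Cyp2c55, Cyp2c65, Cyp2c66 and Cyp3a13. The median log2 fold change was -0.53 against 0.12 over all genes, and -0.54 over the 18 members at 1 CPM in 3 libraries of both groups. The Cyp2c genes of this set other than Cyp2c65 are named because of their values, which had been seen.

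Cyp2c65 and Cyp2c66 are intestinal near copies that stand next to each other on chromosome 19. For each, over 20% of the windows occur in other genes of these families, most often in the other of the pair. Their upstream bases are shown side by side because the reads of the pair can be confused, with matches to the same 4 hexamers in capitals.
Cyp2c65 (chr19:39060756-39061005, plus strand): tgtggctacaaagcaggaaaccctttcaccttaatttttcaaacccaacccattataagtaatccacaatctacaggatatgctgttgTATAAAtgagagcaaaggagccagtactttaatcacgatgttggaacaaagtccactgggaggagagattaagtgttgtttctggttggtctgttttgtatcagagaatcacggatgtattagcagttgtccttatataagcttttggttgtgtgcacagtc
Cyp2c66 (chr19:39113648-39113897, plus strand): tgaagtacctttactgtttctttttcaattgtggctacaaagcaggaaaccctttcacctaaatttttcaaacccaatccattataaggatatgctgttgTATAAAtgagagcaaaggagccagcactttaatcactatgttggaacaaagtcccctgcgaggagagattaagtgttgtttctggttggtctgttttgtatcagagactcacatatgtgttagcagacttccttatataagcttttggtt
TATAAA occurred 162 bases before the start of Cyp2c65 and 150 bases before that of Cyp2c66, and neither held another of the hexamers.

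Cyp2c65 had 399, 371.4 and 362 CPM in the RYGB duodenum. The sham libraries had 1297.9, 1050.1, 1330 and 593.6 CPM. The RYGB libraries lay close together and below every sham library, with a log2 fold change of -1.43 (95% confidence interval -2.08 to -0.78, adjusted P = 0.118). Cyp2c66 had 187.9, 76.2 and 92.4 CPM after RYGB and 743.4, 619.9, 975.8 and 358 CPM in the sham group (log2 fold change -2.52, interval -3.42 to -1.61, adjusted P = 0.0933). Cyp2c55, the first gene of the cluster, had 155.4, 20.9 and 23.2 CPM against 766.2, 380.5, 548.5 and 291.7 CPM (log2 fold change -3.42, interval -4.94 to -1.89, adjusted P = 0.118). None of the 3 intervals includes 0, and none of the 3 adjusted P values passed 0.05 in this fit.

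Cyp2c29, a CAR-inducible enzyme, had 25.8, 9.4 and 27.7 CPM after RYGB. It had 30.4, 235, 719.3 and 411.5 CPM in the sham group, a log2 fold change of -3.44 (SE 0.96, adjusted P = 0.150). Sham replicate 1 lay close to the RYGB libraries here, and it was the lowest sham library for 13 of 20 members, against 20% of all genes. Leaving out sham replicate 1 made Cyp2c29 a DEG, leaving out RYGB replicate 1 did so for Cyp2c55, and leaving out sham replicate 4 did so for Cyp2c55, Cyp2c65 and Cyp2c66.

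Among the most abundant duodenal genes, Cyp3a13 had 1392.8, 2183.5 and 1742.3 CPM after RYGB and 2650, 2733.8, 3593.9 and 3620.7 CPM in the sham group (log2 fold change -0.84, SE 0.25, adjusted P = 0.160). Cyp3a11 had 2019.6, 828.2 and 632.4 CPM against 1878.7, 1832.2, 2724.1 and 3832.3 CPM, which overlap through RYGB replicate 1 (log2 fold change -1.26, SE 0.43, adjusted P = 0.190). The sum of all members was 4641.5 to 6127.9 CPM after RYGB and 9154.6 to 13335.1 CPM in the sham group. Enterocyte markers overlapped, with sums of 44942.1 to 56245.1 and 47095.1 to 62486.2 CPM. The 3 proximal small intestine markers listed summed to 4551.6 to 5510.2 CPM after RYGB and 5454.8 to 13876.8 CPM in the sham group. The 2 distal ones listed summed to 28.1 to 49.9 and 1.5 to 34.6 CPM. The 4 crypt and cycling cell markers listed summed to 39.3 to 135.1 and 24.9 to 41.0 CPM. None of these markers was called. The acinar marker Cela1, the only one of 9 pancreatic markers listed, reached 517.5 CPM in the RYGB group and 4817.2 CPM in the sham group, where it varied from 7.1 CPM upwards. The T cell markers summed to 40.6 to 91.9 and 14.7 to 47.0 CPM, and the 2 macrophage markers listed to 9.4 to 21.7 and 1.0 to 9.0 CPM. Their part was not tested.

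**Figure D3:**
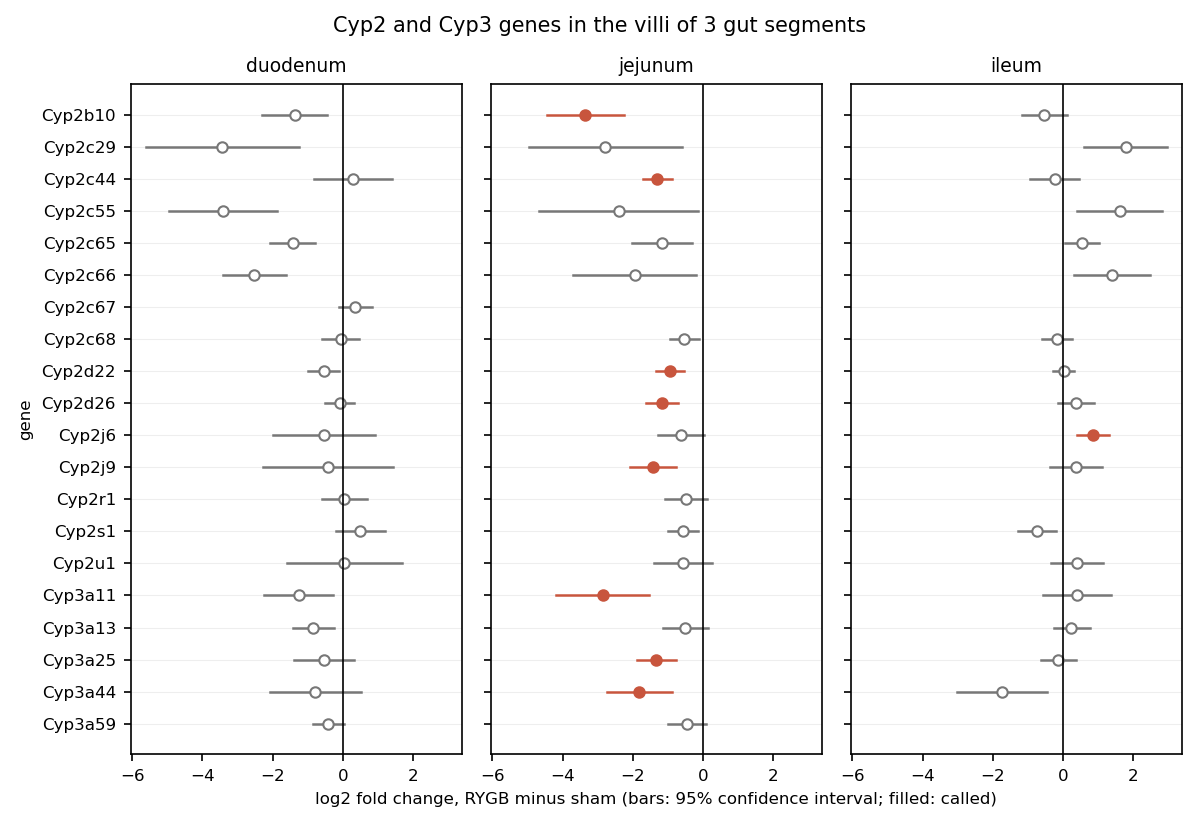
Log2 fold changes (RYGB minus sham, points) with 95% confidence intervals (bars) of the members tested in the villi of the duodenum, jejunum and ileum, with DEGs filled. All 19 points of the jejunum and 15 of 20 points of the duodenum lie below 0, and 11 of 17 points of the ileum lie above it.

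In the ileal villi only Cyp2j6 was a DEG, 1 of 17 members called higher where 1.64% of all genes were called higher (176 genes, or 329 when each library was scaled by its median ratio). In both directions 6.05% of all genes were called, so the members' share of 5.88% was near that of all genes. At an unadjusted P value under 0.05, 5 members were higher, against 7.86% of all genes, and 2 were lower (Cyp3a44 and Cyp2s1), against 18.6% of all genes. Cyp3a44 is listed through the sham group, and the listing of Cyp2c29, which is among the 5 higher, leans on the RYGB group. The median log2 fold change was 0.36, against -0.09 over all genes. No member had groups without overlap, against 9.34% of all genes.

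Cyp2j6, a fatty acid epoxygenase of the gut and liver, had 443.4, 662.7, 316.3, 354.6 and 598 CPM in the RYGB ileum. It had 261, 348.1, 214.7, 217.3 and 233 CPM in the sham group. RYGB replicate 3 lay below the highest sham library, and the log2 fold change was 0.86 (SE 0.21, adjusted P = 0.0316). The call was lost without RYGB replicate 1 or 2 or without sham replicate 1, 3, 4 or 5, with adjusted P values of 0.0179 to 0.0827 over all alternatives. Cyp2j6 had 255 ± 101 CPM after RYGB and 389 ± 129 CPM after sham in the jejunum (SD, n = 3 and 4, log2 fold change -0.62, interval -1.27 to 0.03).

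Cyp2c29, Cyp2c55 and Cyp2c66, whose means were lower after RYGB in the duodenum and jejunum, had higher means after RYGB in the ileum, without a call. Cyp2c29 had 4.5, 19.5, 0.6, 9.4 and 9.1 CPM against 0.8, 1.6, 0.5, 0.7 and 2.3 CPM (log2 fold change 1.78, adjusted P = 0.0638). It reached 1 CPM in more RYGB than sham libraries, and in neither group in all 5. Its listing thus leans on the RYGB group, where it is higher. Cyp2c55 had 104 ± 65.3 CPM against 31.8 ± 20.3 CPM (SD, n = 5 each, log2 fold change 1.61, adjusted P = 0.0914). Cyp2c66 had 81.3 ± 38.7 CPM against 30.1 ± 19.1 CPM (log2 fold change 1.40, adjusted P = 0.0988). RYGB replicate 3 was the lowest RYGB library for 14 of 17 members and for 51.6% of all genes. Without it Cyp2c29, Cyp2c55, Cyp2c65, Cyp2c66 and Cyp2j6 were DEGs, all higher. Without RYGB replicate 5 the DEGs were Cyp2j6 and Cyp2s1. The difference between segments was not tested.

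**Figure D4:**
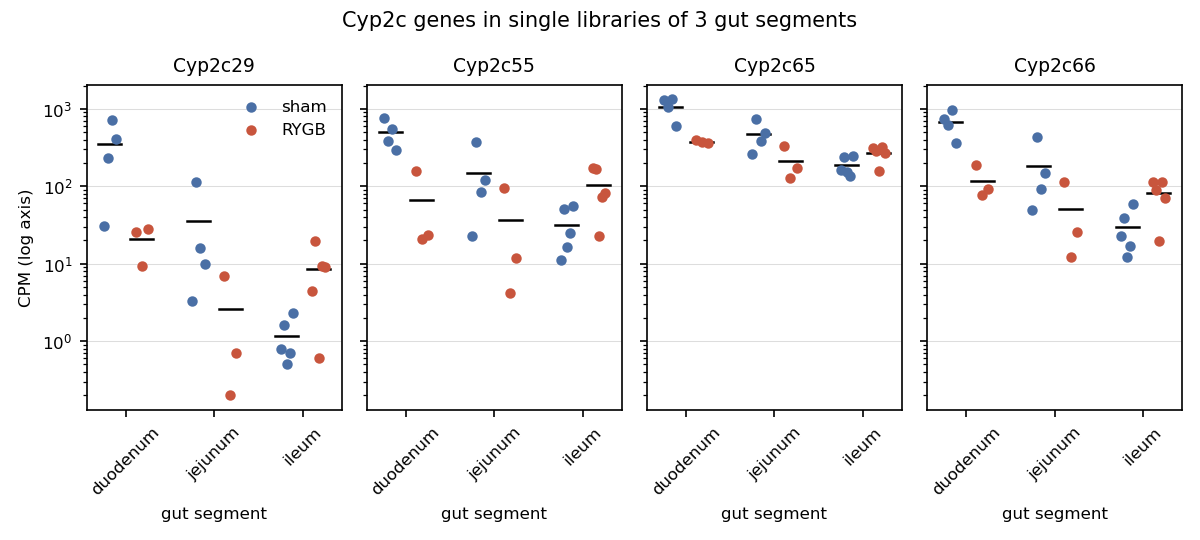
CPM (log axis) of Cyp2c29, Cyp2c55, Cyp2c65 and Cyp2c66 in single libraries of the 3 gut segments, sham beside RYGB, with bars at the group means. The RYGB means lie below the sham means in the duodenum and jejunum and above them in the ileum. The groups overlap for each gene in the jejunum and in the ileum.

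The Cyp3a genes of the ileum overlapped between groups. Cyp3a13 had 2222.6, 1809.2, 2100, 1002.3 and 1042.1 CPM after RYGB and 1328.3, 1576, 1090.6, 1447.7 and 1146.1 CPM in the sham group (log2 fold change 0.24, interval -0.27 to 0.76). Cyp3a11 had 1236, 664.7, 296.2, 589.7 and 395 CPM against 386.7, 661.8, 150.7, 733.9 and 519.9 CPM (log2 fold change 0.39, interval -0.58 to 1.36). Cyp2d26 had 555.2, 735.6, 560.2, 683.6 and 880.1 CPM against 514, 680.3, 422.9, 323 and 812.8 CPM (log2 fold change 0.36, interval -0.14 to 0.87). No lane of the ileum held libraries of both groups, and the effect of surgery cannot be told apart from that of the lane in this segment. Of 5 T cell markers listed 4 were called lower, with sums of 5.3 to 17.2 CPM after RYGB and 23.9 to 61.0 CPM in the sham group, and 1 of 8 enterocyte markers was called lower. The 3 proximal small intestine markers listed summed to 3902.2 to 8646.3 CPM after RYGB and 1313.8 to 4142.0 CPM in the sham group, with 1 called higher, and 1 of 4 distal and 1 of 5 goblet cell markers were called higher. Their part was not tested.

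Regulators and partners of the P450 enzymes were followed in the gut. The PXR gene Nr1i2 had 146 ± 3.90 CPM after RYGB and 141 ± 8.69 CPM after sham in the jejunum (log2 fold change 0.06, adjusted P = 0.858). The CAR gene Nr1i3 had 96.7 ± 17.8 against 128 ± 15.4 CPM (log2 fold change -0.41, adjusted P = 0.197), and the dioxin receptor gene Ahr had 16.3 ± 3.32 against 13.6 ± 3.79 CPM (adjusted P = 0.580). Of 18 receptor and regulator genes tested in the jejunum, 2 were lower. They were Nr0b2, which encodes the corepressor SHP and is induced by the bile acid receptor (0.533 ± 0.757 against 6.47 ± 3.64 CPM, log2 fold change -2.25, adjusted P = 0.0122), and the fatty acid receptor Ppara (log2 fold change -1.02, adjusted P = 0.0359). In the ileum Nr0b2 was higher, at 7.46 ± 3.70 against 1.66 ± 1.24 CPM (log2 fold change 1.65, adjusted P = 0.0235), and the glucocorticoid receptor gene Nr3c1 was lower (log2 fold change -0.73, adjusted P = 0.0176), 1 higher and 1 lower of 17. In the duodenum none of 18 was called. Over all genes, 9.75% were called in the jejunum and 6.05% in the ileum. Nr0b2 is listed in the jejunum through the sham group, with 2.6 to 10.1 CPM against 0 to 1.4 CPM after RYGB. In the ileum it is listed through the RYGB group, with 2.5 to 12.1 CPM against 0.4 to 3.6 CPM in the sham group. Its direction in each segment was therefore favoured by the listing.

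Por, the electron donor of all these enzymes, rose in the ileum, from 261 ± 77.9 to 596 ± 230 CPM (log2 fold change 1.15, adjusted P = 0.0261). It had 467 ± 232 against 479 ± 175 CPM in the jejunum and 343 ± 63.0 against 588 ± 136 CPM in the duodenum (adjusted P = 0.927 and 0.156). Alas1, the first enzyme of heme synthesis, had 358 ± 96.7 CPM after RYGB against 180 ± 114 CPM in the jejunum (log2 fold change 1.12, adjusted P = 0.0968), 194 ± 45.9 against 116 ± 40.8 CPM in the ileum (adjusted P = 0.0768), and 154 ± 13.1 against 332 ± 191 CPM in the duodenum (adjusted P = 0.303). In the jejunum the heme-degrading Hmox1 rose and the heme-binding Pgrmc1 fell (log2 fold changes 1.42 and -0.67). They were 1 higher and 1 lower of 13 genes of electron transfer and heme supply, where 9.75% of all genes were called. Hmox1 is listed through the RYGB group, with 2.4 to 5 CPM against 0.4 to 1.9 CPM in the sham group. Pgrmc1 was not called when libraries were scaled by their median ratio.

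Of 22 enzymes of conjugation and transporters tested in the jejunum, 5 were lower and 1 was higher (3 and 1 with median-ratio scaling). Over all jejunal genes 5.13% were called lower and 4.62% higher. The glucuronosyltransferases Ugt2a3, Ugt2b34 and Ugt2b36 had log2 fold changes of -1.19, -0.77 and -1.36, the sulfotransferase Sult1d1 had -1.17 and the retinal dehydrogenase Aldh1a1 had -1.67. The exporter Abcc3 rose by 1.17 on the log2 scale. In the ileum Abcc3 and Gsta4 were higher and Ugt2a3 was lower, 2 and 1 of 24, where 6.05% of all genes were called. Of other P450 families, Cyp51, the lanosterol demethylase of cholesterol synthesis, rose in the jejunum from 37.6 ± 51.8 to 340 ± 85.4 CPM (log2 fold change 3.93, adjusted P = 0.00832) and in the ileum (log2 fold change 1.53). Cyp4v3 was lower in the jejunum (log2 fold change -1.39). In the ileum Cyp4f16 was higher and the sterol hydroxylase Cyp27a1 lower (2.33 and -1.31).

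In the liver 7 of 32 members were DEGs. Cyp2c29, Cyp2d9, Cyp2u1, Cyp2d40 and Cyp2c54 were lower and Cyp2a22 and Cyp2c39 were higher in the RYGB group. The share called lower was 5 of 32 against 1.29% of all genes, and the share called higher was 2 of 32 against 5.79% of all genes (684 higher and 152 lower genes, or 438 and 233 when each library was scaled by its median ratio). Scaled so, 8 members were lower and 2 higher. The median log2 fold change was -0.35, against 0.13 over all genes. Groups did not overlap for 9 members that were lower, against 3.05% of all genes. Of the 31 members that reached 1 CPM in 4 libraries of both groups, 22 had log2 fold changes below 0 (median -0.36), all 5 Cyp2d and all 3 Cyp2j genes among them. The remaining one, Cyp2a4, is listed through the RYGB group.

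The bases upstream of 3 liver DEGs are shown for the largest changes in either direction, with the same hexamers in capitals. For Cyp2d9 and Cyp2c29 the RefSeq start lies 18940 and 17680 bases downstream of the start of the annotated gene.
Cyp2d9 (chr15:82452127-82452376, plus strand): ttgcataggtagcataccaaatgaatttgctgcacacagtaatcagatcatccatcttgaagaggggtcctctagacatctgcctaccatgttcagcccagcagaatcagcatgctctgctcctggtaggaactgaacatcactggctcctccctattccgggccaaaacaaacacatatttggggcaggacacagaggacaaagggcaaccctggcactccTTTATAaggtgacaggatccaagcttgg
Cyp2c29 (chr19:39286835-39287084, plus strand): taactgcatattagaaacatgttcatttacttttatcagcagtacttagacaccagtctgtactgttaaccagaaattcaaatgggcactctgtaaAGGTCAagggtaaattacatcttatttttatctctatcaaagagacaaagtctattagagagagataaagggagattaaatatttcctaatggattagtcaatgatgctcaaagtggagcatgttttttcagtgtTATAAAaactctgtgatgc
Cyp2a22 (chr7:26939387-26939636, minus strand): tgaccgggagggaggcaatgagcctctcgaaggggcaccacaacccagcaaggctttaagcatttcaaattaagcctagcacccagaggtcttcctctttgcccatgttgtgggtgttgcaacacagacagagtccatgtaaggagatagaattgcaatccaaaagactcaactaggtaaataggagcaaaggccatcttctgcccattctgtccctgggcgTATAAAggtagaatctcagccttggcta
TATAAA stood at 28 bases before the start in Cyp2d9 (on the other strand) and in Cyp2a22, and at 19 bases in Cyp2c29, which also held AGGTCA at 154. Of the 5 liver DEGs with an entry, 4 held TATAAA, 1 held AGGTCA, 1 held AGTTCA and none held GTTAAT.

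Cyp2d9, the testosterone 16-alpha-hydroxylase of male liver, had 272.8, 200.2, 229.6 and 248.5 CPM after RYGB. It had 708.5, 871.8, 786.9 and 724.1 CPM in the sham group. The groups lay far apart compared with the spread within them, with a log2 fold change of -1.70 (SE 0.13, adjusted P = 0.000185). Of the windows of Cyp2d9, 28.3% occur in other genes of these families, most often in Cyp2d12. Cyp2c29 had 536.5, 131.3, 198.1 and 412.9 CPM against 1374.6, 955, 1015.1 and 1488.4 CPM, a log2 fold change of -2.10 (SE 0.38, adjusted P = 0.0117). It was the member with the second highest level per length in the sham liver. Cyp2c54 had 148.5, 116.5, 117.2 and 178.7 CPM against 302.7, 214.6, 233.5 and 328.5 CPM, also without overlap (log2 fold change -0.94, SE 0.18, adjusted P = 0.0138).

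Cyp2u1, a fatty acid hydroxylase, had 5, 2.4, 7.6 and 6.5 CPM after RYGB and 14.5, 21.3, 7.1 and 16.8 CPM in the sham group (log2 fold change -1.31, SE 0.34, adjusted P = 0.0386). Cyp2d40 had 33.7, 20.9, 36.6 and 43.6 CPM against 101.3, 107.3, 43.2 and 73.4 CPM (log2 fold change -1.21, SE 0.29, adjusted P = 0.0294). In both genes sham replicate 3 lay within the RYGB range. Among the alternatives, both lost their call without RYGB replicate 2 or 3 or without sham replicate 1, 2 or 4, with adjusted P values over the alternatives of 0.00994 to 0.0953 for Cyp2u1 and 0.00184 to 0.0856 for Cyp2d40.

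Cyp2a22 had 10.4, 9.2, 17.6 and 13.7 CPM after RYGB. Its sham libraries had 1.2, 1.1, 6.9 and 1.7 CPM. The highest sham library was replicate 3, and the log2 fold change was 2.08 (SE 0.38, adjusted P = 0.0119). Of the windows of Cyp2a22, 25.7% occur in other genes of these families, most often in Cyp2a12. Cyp2a12 had 402 ± 36.5 against 422 ± 53.2 CPM. Cyp2c39 rose from 1.8, 1.9, 2.3 and 3.1 CPM to 5, 4.6, 5.6 and 6.4 CPM (log2 fold change 0.98, SE 0.16, adjusted P = 0.00876).

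**Figure D5:**
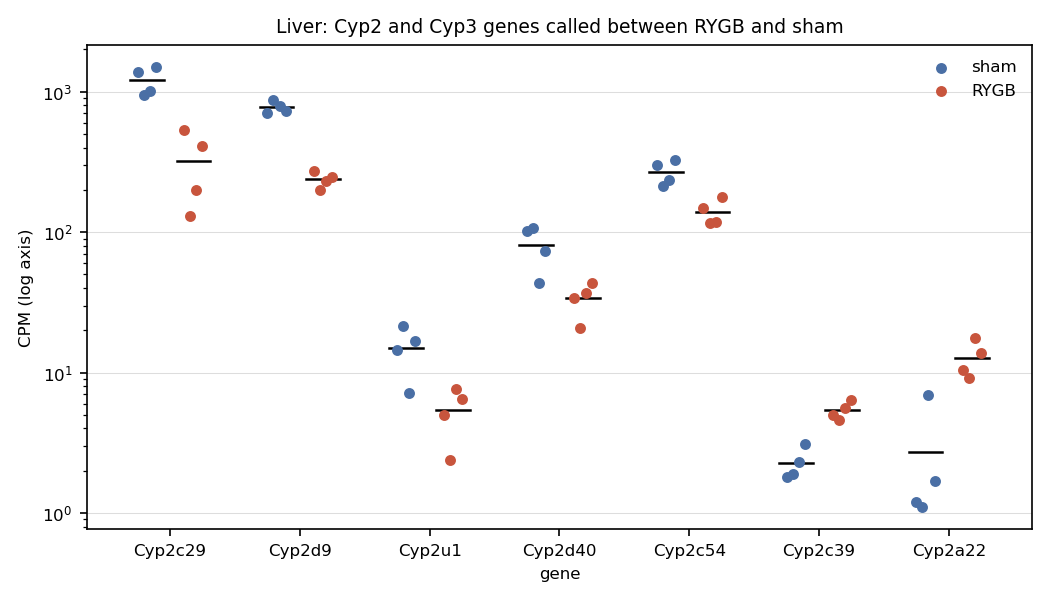
CPM (log axis) of the 7 DEGs of the liver in single libraries, with 4 sham and 4 RYGB points per gene and bars at the group means. Cyp2d9 has the clearest gap, 238 CPM against 773 CPM in the means, and in Cyp2u1 and Cyp2d40 1 sham point lies among the RYGB points.

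The 3 liver members with the highest mean CPM over all libraries, Cyp2e1, Cyp2f2 and Cyp3a11, were not DEGs. Cyp2e1 had 4583.6, 3312.6, 5481.7 and 4508.8 CPM after RYGB and 4512.1, 5095.1, 7674.7 and 5801 CPM in the sham group (log2 fold change -0.36, interval -0.87 to 0.15). Cyp2f2 had 1238.2, 491.6, 632.1 and 1279.1 CPM against 1131.6, 834.9, 1266.9 and 1261.8 CPM (log2 fold change -0.40, interval -1.06 to 0.25). Cyp3a11 had 1076.2, 525.9, 1108.8 and 1397.9 CPM against 418.2, 489.9, 941.2 and 1057.6 CPM (log2 fold change 0.53, interval -0.25 to 1.30). In each the groups overlap. The 25 members without a call ranged from -0.83 to 1.41 in log2 fold change, Cyp2c55 and Cyp2a4 being the ends. Cyp2d10 and Cyp2d22 had adjusted P values of 0.0375 and 0.0304 but fold changes under 1.5. Cyp2c70, which makes muricholic acids, had 360 ± 108 against 516 ± 173 CPM (adjusted P = 0.218), and Cyp2r1, a vitamin D 25-hydroxylase, had 15.1 ± 1.12 against 20.8 ± 3.94 CPM (adjusted P = 0.0981).

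Sham replicate 3 had the highest sham values of Cyp2a4 and Cyp2b9, both known as female-biased. Cyp2a4, a steroid 15-alpha-hydroxylase, had 24.1 CPM in this library and 0.1 to 0.3 CPM in the other sham libraries, against 2.7 to 14.4 CPM after RYGB. Cyp2b9 had 231.3 CPM there and 1.2, 3.3 and 27.4 CPM in the others, against 14.9, 6.8, 89.5 and 52.2 CPM after RYGB. Without this library 8 members were called, Cyp2a4 being the added one and higher. RYGB replicate 2 was the lowest RYGB library for 23 of 32 members, against 18% of all genes. Sham replicate 2 was likewise the lowest sham library for 17 of 32 members, against 7.06% of all genes.

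All 5 genes of the list of P450 genes known as male-biased in mouse liver were called lower, also after median-ratio scaling. Of all liver genes 1.29% were called lower. The list holds the DEGs Cyp2d9 and Cyp2u1 given above. It was chosen with earlier results of these data known, so the count is not independent support. Cyp4a12a, an androgen-dependent fatty acid hydroxylase, had 1.7 to 32.2 CPM after RYGB and 64.3 to 157.4 CPM in the sham group (log2 fold change -4.04, adjusted P = 0.00646). Cyp4a12b had 0.3 to 4.6 against 13 to 37.5 CPM (log2 fold change -3.27, adjusted P = 0.00318), and the oxysterol hydroxylase Cyp7b1 had 143.8 to 181.6 against 279.6 to 467.5 CPM (log2 fold change -1.14, adjusted P = 0.00666). The median of the 5 was -1.70. Cyp4a12b is listed through the sham group, and Cyp2u1 lost its call in 6 of 14 alternatives. Of 9 female-biased genes 2 were listed (Cyp2a4 and Cyp2b9) and neither was called.

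Of other P450 families in liver, 4 of 28 genes were higher and 4 lower (3 and 4 with median-ratio scaling). Over all liver genes 5.79% were called higher and 1.29% lower. Cyp17a1, which makes steroid precursors, rose from 13.9 ± 4.89 to 70.2 ± 30.1 CPM, and the oxysterol hydroxylase Cyp39a1 from 20.8 ± 8.95 to 91.4 ± 13.5 CPM (log2 fold changes 2.20 and 2.15). Of 33 genes of conjugation and transport, 7 were higher and none lower, Slco1a4, Gstm3 and Ugt1a9 among them with log2 fold changes of 1.96, 1.97 and 1.55 (4 higher and 1 lower with median-ratio scaling). Of 17 receptor and regulator genes none was called. Nr1i2 had 68.8 ± 11.4 against 53.3 ± 7.66 CPM, Nr1i3 220 ± 32.9 against 159 ± 38.1 CPM, and Ahr 106 ± 18.8 against 72.6 ± 15.9 CPM (adjusted P = 0.129, 0.120 and 0.0707). Por had 237 ± 61.6 against 149 ± 25.8 CPM and Alas1 475 ± 164 against 226 ± 125 CPM (adjusted P = 0.0725 and 0.0569). Of 14 genes of electron transfer and heme supply, only the cytochrome b5 reductase gene Cyb5r3 was called, and it was lower (log2 fold change -0.69).

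The liver libraries shared 3 lanes, each with both groups. Within lanes the log2 difference of Cyp2d9 was -1.67, -1.91 and -1.56, and that of Cyp2c29 was -0.83, -3.22 and -2.26. Hepatocyte markers overlapped between groups, with sums of 98952.0 to 134204.7 CPM after RYGB and 101916.3 to 117820.5 CPM in the sham group. Of 7 macrophage markers listed 3 were called higher, with sums of 647.8 to 1110.9 and 494.0 to 750.4 CPM, and of 4 neutrophil markers 3 were called higher, with sums of 28.8 to 447.2 and 7.2 to 14.2 CPM. Their part in the P450 values was not tested. The members' summed level was 8780.1 to 13093.6 CPM after RYGB, below the 13317.3 CPM of the lowest sham library.

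In WAT 2 of 8 members were lower and none higher, where 9.23% of all genes were called lower (1235 genes, or 1668 with median-ratio scaling) and 14.9% higher (1996, or 1649). In both directions 24.1% of all genes were called, so the members' share of 25.0% was near that of all genes. Cyp2j9 had 10.1, 10.3, 9.5 and 6.8 CPM after RYGB and 14.6, 15.3, 19.4 and 17.8 CPM in the sham group, with no overlap (log2 fold change -0.81, SE 0.15, adjusted P = 0.00620). Cyp2d22 had 60.1, 57.5, 45.3 and 37.5 CPM against 55.2, 72.1, 122.8 and 103.1 CPM, which overlap through sham replicate 1 (log2 fold change -0.76, SE 0.25, adjusted P = 0.0435). Its call was lost under 8 of 14 alternatives, among them leaving out RYGB replicate 2, 3 or 4 or sham replicate 2, 3 or 4, with adjusted P values of 0.0188 to 0.106. Within the 2 lanes that held both groups the log2 difference was -0.30 and -1.44 for Cyp2d22 and -0.55 and -1.27 for Cyp2j9.

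Cyp2e1 varied widely among the WAT libraries. It had 420.5, 637.8, 182.2 and 135.9 CPM after RYGB and 426, 78.9, 66.7 and 7.7 CPM in the sham group, a log2 fold change of 2.10 with an interval of -0.25 to 4.44. It was a DEG without sham replicate 1, the one sham library within the RYGB range, and 3 members were called then. The count was 3 also without RYGB replicate 1, where Cyp2j6 was added, and 1 (Cyp2j9) without RYGB replicate 3 or 4 or sham replicate 2, 3 or 4. Cyp2j6 had 26.6, 27.7, 25.1 and 16 CPM against 34.3, 34.2, 36.1 and 36 CPM with no overlap, but its fold change was under 1.5 (log2 fold change -0.57, adjusted P = 0.0262). Cyp2r1 had 2.45 ± 0.443 CPM after RYGB against 1.48 ± 0.287 CPM (SD, n = 4 each), also without overlap and under the fold threshold (log2 fold change 0.48, adjusted P = 0.0425). Groups did not overlap for 3 of 8 members in WAT, or 37.5%, which was near the 41.2% of all genes.

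The WAT libraries differed in cell markers. All 7 B cell markers and all 7 T cell markers were called higher after RYGB. The B cell sums were 826.7 to 2152.5 CPM after RYGB and 6.7 to 16.6 CPM in the sham group, and the T cell sums were 332.9 to 1256.0 and 11.8 to 21 CPM. Macrophage markers, 3 of 6 called lower, summed to 807.2 to 1271.7 and 1559.7 to 2900.2 CPM. Adipocyte markers summed to 8245.5 to 16714.6 and 16301.8 to 23906.9 CPM, with 1 of 7 called lower. Keratinocyte markers had 3 of 4 called lower, with sums of 2.5 to 4.5 and 4.8 to 152.4 CPM. Their part in the values of Cyp2d22 and Cyp2j9 was not tested. Ahr, Por and Alas1 had log2 fold changes of 0.05, -0.37 and 0.07 and were not called in WAT, and Nr1i2 and Nr1i3 were not listed there. Of 14 genes of electron transfer and heme supply, Cyb5r3 and Hmox1 were lower (log2 fold changes -0.63 and -0.68). Of 15 genes of other P450 families, Cyp4b1 and Cyp4f17 were lower (-1.37 and -0.91) and Cyp4f18, which inactivates leukotriene B4, was higher (2.13), or 3 were lower and 1 higher with median-ratio scaling. Of 18 genes of conjugation and transport, Abcb1a, Abcc3 and Slco2b1 were lower (-0.63, -0.77 and -0.59), or 5 with median-ratio scaling, and of 12 receptor and regulator genes Cux2 was lower (-1.14). Without that scaling 24.1% of all genes were called in WAT, and each of these lists had a lower share.

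In muscle no member was a DEG under limma, nor was any of all genes tested (0.0%). At an unadjusted P value under 0.05 there was 1 of 5 members, Cyp2d22, against 14.6% of all genes. Cyp2d22 had 13.6, 11.8, 18.2 and 11.8 CPM after RYGB and 10, 8.4, 13.1 and 9.5 CPM in the sham group (log2 fold change 0.40, interval 0.03 to 0.77, adjusted P = 0.314). Cyp2e1 had 16.8, 4.9, 0.4 and 3.4 CPM against 3.2, 5.8, 7 and 6.8 CPM (log2 fold change -0.37, interval -1.76 to 1.03). Cyp2u1 had 4.1, 4.6, 4.8 and 4.5 CPM against 3.7, 4.5, 5.7 and 4.6 CPM, and its interval of -0.31 to 0.26 was the narrowest of the 5. Ahr, Por and Alas1 had log2 fold changes of 0.46, 0.24 and 0.07 there and were not called.

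Across tissues, 16 members were DEGs in at least 1 tissue. Cyp2j9 and Cyp2d22 were lower in both the jejunum and WAT, in separate tables. Cyp2c29 was lower in the liver, at 320 ± 188 against 1210 ± 263 CPM, and had 2.60 ± 3.73 against 35.4 ± 51.5 CPM in the jejunum, where it was not called. Cyp3a11, lower in the jejunum, had 1030 ± 364 against 727 ± 320 CPM in the liver (adjusted P = 0.360). Whether these differences differ between tissues was not tested, because the tables were normalized separately.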

How the data were processed

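The deposited tables hold CPM per gene, rounded by the authors to steps of 0.1. The submitters' processing notes name HTSeq and GRCm38. The aligner and annotation are not given in the sources used here. In the jejunum and ileum tables and 1 liver column (sham replicate 4), repeated or shifted lines kept the deposited values from summing like CPM, so their deposited unit was entered as a score. They were used as CPM after repeats were dropped. Repeated lines were used once and 12 liver lines without a value were left out. Depth is unknown, since reads could not be recovered.

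Each tissue was fitted on its own, over genes averaging 1 CPM or more, on log2(CPM + 1) with limma 3.58.1 (R 4.3.3), with a mean-variance trend and two-sided tests, and P values were adjusted over all genes (Benjamini-Hochberg). The procedure was tested on simulated data. Alternatives were a pseudocount of 0.1, no minimum or 10 CPM, median-ratio scaling, a replicate block, lane, adjusted P alone and leaving out each library. Named genes were the DEGs and the 3 highest members per tissue. DEGs of a pathway list (at most 6 each) and Nr1i2, Nr1i3, Ahr, Por and Alas1 were named, and any other gene was picked with its values in view. Members and lists were chosen with earlier results of these data known. Transcript windows came from GENCODE M21 and promoters from RefSeq GRCm38.p6, with 33 of 37 members matched by symbol.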

Additional observations from a re-analysis of the deposited data

Results flagged for a closer look

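Among 163 groups of 4 or 5 libraries tested for a value far from the others, 8 members had one, and chance alone gives about 1 in 20 groups (8.2 here). In the liver, Cyp2a4 had 24.1 CPM in sham replicate 3 and 0.1 to 0.3 CPM in the other sham libraries. RYGB replicate 2 had 186.7 CPM of Cyp2c37 (others 269.1 to 280.7) and 165.9 CPM of Cyp2c44 (others 247.0 to 266.4). Sham replicate 2 had 130.9 CPM of Cyp2j6 (others 105.8 to 108.4) and 179.9 CPM of Cyp3a13 (others 248.2 to 264.4). In the jejunum, Cyp2b10 had 274.1 CPM in sham replicate 1 and 568.7 to 611.9 CPM in the other sham libraries. In the ileum, RYGB replicate 3 had 156.9 CPM of Cyp2c65 (others 267.8 to 326.2) and 19.6 CPM of Cyp2c66 (others 70.3 to 113.5). The causes were not tested.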

How the results depend on the processing

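Of 241 repeats of the 18 calls under an alternative, 205 kept the call, 36 lost it and 0 changed sign. Cyp2c29, Cyp2d9, Cyp2c54, Cyp2c39 and Cyp2a22 in liver, Cyp2j9 in WAT and Cyp2b10, Cyp3a25, Cyp2c44 and Cyp2d26 in the jejunum kept theirs in every alternative that tested them. Leaving out 1 library gave 5 to 9 DEGs among the members in liver, 1 to 3 in WAT, 0 in muscle, 0 to 3 in the duodenum, 4 to 11 in the jejunum and 0 to 5 in the ileum. In WAT a pseudocount of 0.1 CPM gave 4 DEGs, as did adjusted P alone (4). With the lane in the model the jejunum gave 4. This setting has the same fold changes as leaving out jejunal RYGB replicate 2, though the repeats count both. Median-ratio scaling gave 3 in the ileum. The numbers of the libraries were not taken to pair them, since the descriptions do not say that they do. Deviations of same-numbered libraries correlated from -0.281 to 0.389. In 0 tissues did every number exceed 0.1, and 16 of 48 libraries correlated best with their own number. The liver came nearest to pairing, with 6 of 8 libraries and correlations of 0.267, 0.167, -0.0552 and 0.24. These values cannot decide whether the numbers pair mice, because no chance level was set for them. With the replicate number as a block, 9 members were DEGs in liver, 3 in WAT, 0 in muscle, 3 in the duodenum, 8 in the jejunum and 3 in the ileum. Under this block Cyp2u1 in liver and Cyp2d22 in WAT lost their calls (adjusted P = 0.051 and 0.0757, limma), Cyp2c55, Cyp2c65 and Cyp2c66 were called lower in the duodenum, and Cyp2c29 and Cyp3a44 were added in the ileum. The causes were not tested. Without counts, no depth limit could be given, and steps of 0.1 CPM limit members near 1 CPM.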
